A study of Mus musculus with 227 samples.

Results

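Voltage-gated sodium channels open rapidly when a neuron depolarizes and carry the inward current of the action potential. Each channel has a large pore-forming alpha subunit and smaller beta subunits, which are single-pass membrane proteins that adjust gating and anchor the channel. In cortical neurons the channels are concentrated at the axon initial segment, and mutations in several of their genes cause epilepsy in people. Voltage-gated sodium channel genes were followed here through 7 members, chosen by gene symbol, which are the alpha subunit genes Scn1a, Scn2a1, Scn3a and Scn8a and the beta subunit genes Scn2b, Scn3b and Scn4b. All 7 were found among the 31689 genes of the count table, each on 1 row.

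The libraries came from primary cultures of mouse cerebral cortex prepared at embryonic day 16.5 from an FVB/N by C3B6F1 cross and kept for 21 days in vitro. They fall into cultures exposed for 8 h to 1 of 218 drugs, with 1 library per drug, and cultures exposed for the same time to vehicle, 0.2% DMSO, with 9 libraries. All groups share genotype, age and culture conditions, and the sources used here give no drug doses and do not say which libraries share a culture preparation. The vehicle libraries are numbered as in their titles, and their p-values measure the spread between these libraries, which may be technical. The labels divide the libraries over 9 sequencing run codes of 8 to 32 libraries, and 3 of these run codes held no vehicle.

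Counted reads ran over 22.02 M to 65.19 M in drug libraries and over 31.40 M to 43.77 M in vehicle libraries. The cultures carried markers of neurons and astrocytes, and the lists summed here hold no test of the labelled brain region. The summed level of 8 neuron markers was 3943 to 7136 CPM (read counts scaled to a common library total) in drug libraries and 4913 to 6843 CPM in vehicle libraries, and that of 8 astrocyte markers was 5773 to 9231 CPM in drug libraries and 6345 to 7982 CPM in vehicle libraries. Microglial markers summed to at most 11 CPM in drug libraries and 13.1 CPM in vehicle libraries.

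The 3 genes Scn2a1, Scn3a and Scn1a lie within 1 cluster on chromosome 2 of the mm10 (GRCm38) assembly. Scn2a1, named Scn2a in current annotation, spans 65620771 to 65767447 on the plus strand. Scn3a spans 65457118 to 65567627 and Scn1a spans 66270778 to 66440840, both on the minus strand. Scn8a lies at 100869858 to 101045938 on the plus strand of chromosome 15. The 3 beta subunit genes lie on the plus strand of chromosome 9, with Scn3b at 40269217 to 40291618, Scn2b at 45117782 to 45130070 and Scn4b at 45138395 to 45154152. Each of Scn1a, Scn3a, Scn2b and Scn3b overlaps an annotated gene on the opposite strand. Of these 4, only the non-coding gene Gm10684, whose span holds the whole of Scn2b, was on a row of the table, with 32 reads over all libraries.

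Upstream sequences are shown for Scn2a1 and Scn2b, whose levels moved together across libraries, and for Scn1a, whose closest genes were others, as described further on. RefSeq promoter windows (GRCm38.p6) were given for 5 of the 7 members. The stretches below are the parts of the 250 bases before a RefSeq start that lie outside every exon of a protein-coding gene, each on its gene's own strand, and capitals mark every match to the E-box letters CANNTG. They come from chr2:65620519-65620768 (plus strand), chr9:45117626-45117781 (plus strand) and chr2:66440841-66441087 (minus strand).
Scn2a1: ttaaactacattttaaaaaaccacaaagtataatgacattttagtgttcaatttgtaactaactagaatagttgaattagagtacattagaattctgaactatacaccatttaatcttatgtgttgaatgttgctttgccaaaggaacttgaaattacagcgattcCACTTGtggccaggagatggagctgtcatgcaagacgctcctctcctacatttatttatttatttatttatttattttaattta
Scn2b: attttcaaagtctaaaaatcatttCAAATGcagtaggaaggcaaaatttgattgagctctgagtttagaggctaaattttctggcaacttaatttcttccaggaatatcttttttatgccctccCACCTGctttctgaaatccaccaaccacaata
Scn1a: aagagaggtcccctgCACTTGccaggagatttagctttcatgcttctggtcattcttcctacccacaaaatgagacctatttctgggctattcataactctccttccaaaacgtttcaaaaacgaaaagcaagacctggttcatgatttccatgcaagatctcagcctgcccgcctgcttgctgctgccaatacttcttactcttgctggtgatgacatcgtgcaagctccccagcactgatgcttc

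The Scn2a1 stretch shown is rich in A and T, with 29.6% G or C against a median of 52.4% over 32851 promoter windows of the same length. The Scn2b stretch has 35.3% G or C against a median of 50.6% at its length, and the Scn1a stretch has 47.4% against 52.2%. CANNTG, which reads the same on both strands, occurred 1 time in Scn2a1, 2 times in Scn2b and 1 time in Scn1a. It is a common match, present in 66.2%, 50.6% and 65.9% of all windows cut to the lengths of Scn2a1, Scn2b and Scn1a. None of TATAAA, the GC box GGGCGG and the cyclic AMP response element TGACGTCA, searched on both strands, occurs in these 3 stretches. At the full length of 250 bases these letters were present in 12.4%, 32.7% and 1.55% of all windows. RefSeq gives Scn2a1 another start downstream, whose window (chr2:65668436-65668685, not printed) differs from the one shown, with 53.2% G or C, 1 match to TATAAA and none to CANNTG.

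Levels are compared between genes per length, as RPKM (read counts scaled to gene length and library total). Among alpha subunits, Scn2a1 was highest in median. It encodes NaV1.2, the main channel of young excitatory axons, and its RPKM was 40.2 in the median drug library and 44.0 in the median vehicle library. Scn8a, which encodes NaV1.6, the main channel of mature axon initial segments, stood at 18.5 RPKM in the median drug library and 19.8 RPKM in the median vehicle library. Scn3a encodes NaV1.3, which in rodent brain is most abundant before birth, and had medians of 8.39 RPKM in drug libraries and 8.24 RPKM in vehicle libraries. Scn1a encodes NaV1.1, the channel that fast-spiking inhibitory neurons depend on, and had medians of 7.90 RPKM in drug libraries and 8.04 RPKM in vehicle libraries.

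Beta subunit levels covered a wider range. Scn2b, whose product is bound to the alpha subunit by a disulfide bond, had a median of 40.5 RPKM in drug libraries and 43.6 RPKM in vehicle libraries. Scn3b, whose product binds without such a bond, had medians of 29.9 RPKM in drug libraries and 30.9 RPKM in vehicle libraries. Scn4b, whose product can block the open pore and so give rise to resurgent current, was the lowest of all 7, with medians of 3.4 RPKM in drug libraries and 3.86 RPKM in vehicle libraries.

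The order of these levels was steady at most steps. Scn2a1 exceeded Scn3b in all libraries but 1, Scn3b exceeded Scn8a and Scn8a exceeded Scn3a in every library, and Scn1a exceeded Scn4b in 215 of 218 drug libraries and all 9 vehicle libraries. At the other 2 steps the neighbours were not separated beyond their spread. Scn2b was above Scn2a1 in 125 of 218 drug libraries and in 4 of 9 vehicle libraries, and Scn3a was above Scn1a in 152 drug libraries and 7 vehicle libraries. Of other family members, Scn4a, Scn9a, Scn10a and Scn11a had medians under 1 CPM in both groups, and Scn7a had medians of 1.2 CPM in drug libraries and 1.39 CPM in vehicle libraries.

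**Figure D1:**
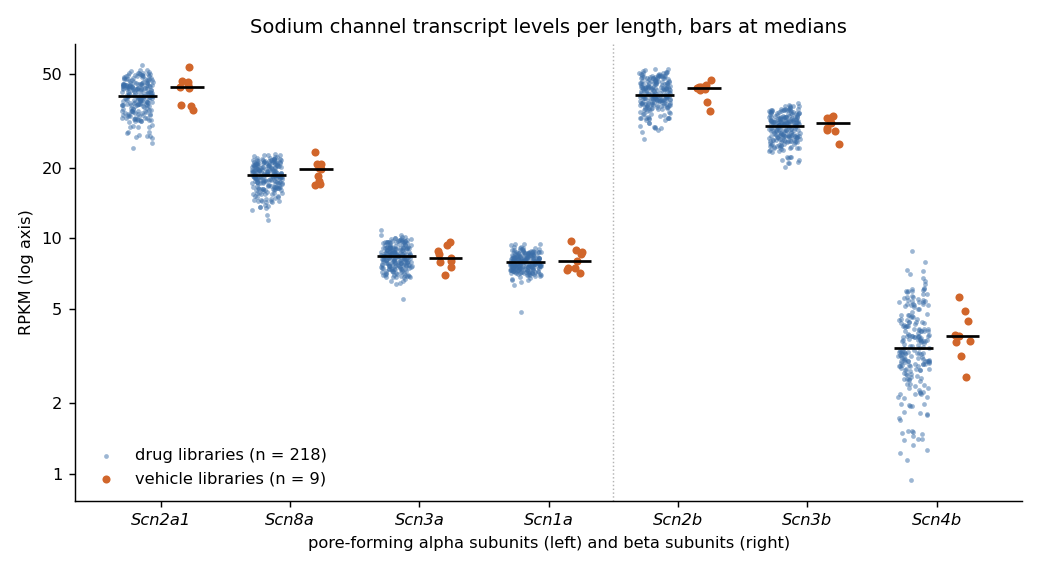
RPKM (log axis) of each sodium channel gene, with 1 point per library, the 218 drug libraries left of the 9 vehicle libraries and black bars at medians. Scn2a1 and Scn2b sit near 40 RPKM, Scn4b near 3, and Scn4b has the widest spread.

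Among the alpha subunits Scn2a1 held the largest share in every library. It made up 45.4% to 58.2% of the summed alpha RPKM in drug libraries, with a median of 53.5%, and 50.9% to 57.0% in vehicle libraries, with a median of 54.4%. Scn8a made up 21.7% to 29.3% in drug libraries (median 24.6%) and 23.3% to 25.9% in vehicle libraries (median 24.4%). The share of Scn3a was 9.29% to 13.3% in drug libraries (median 11.2%) and 9.53% to 11.5% in vehicle libraries (median 10.5%). That of Scn1a varied most for its size, with 8.15% to 15.7% in drug libraries (median 10.5%) and 8.53% to 13.7% in vehicle libraries (median 10.2%). Among the 3 beta subunits measured as members, Scn2b held a median of 55.3% in drug libraries and 55.7% in vehicle libraries, and Scn4b held 4.59% in drug libraries and 5.05% in vehicle libraries.

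Across libraries each gene is given in CPM, scaled by the trimmed mean of M-values (TMM). Scn1a ran over 40.9 to 81.3 CPM in drug libraries, with a median of 67.9 CPM, and over 60.2 to 79.8 CPM in vehicle libraries, with a median of 68.7 CPM. Scn2a1 ran over 210 to 512 CPM in drug libraries (median 366 CPM) and over 313 to 486 CPM in vehicle libraries (median 415 CPM). Scn3a ran over 52.8 to 111 CPM in drug libraries (median 80.5 CPM) and over 66.6 to 94.9 CPM in vehicle libraries (median 82.6 CPM). In these 3 genes, as in the other 4, the vehicle range lay inside the drug range.

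Scn8a ran over 148 to 291 CPM in drug libraries (median 229 CPM) and over 202 to 288 CPM in vehicle libraries (median 242 CPM). Scn2b ran over 115 to 248 CPM in drug libraries (median 186 CPM) and over 155 to 215 CPM in vehicle libraries (median 202 CPM). Scn3b ran over 93.6 to 176 CPM in drug libraries (median 137 CPM) and over 114 to 159 CPM in vehicle libraries (median 141 CPM). These 3 genes varied moderately. Scn4b ran over 4.4 to 42.5 CPM in drug libraries (median 16.6 CPM) and over 12.2 to 29.1 CPM in vehicle libraries (median 19.2 CPM), the widest relative range of the members.

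Part of this variation went with the sequencing run code. The run code accounted for 26.1% of the variance of log2 CPM in Scn1a, 28.6% in Scn4b, 29.2% in Scn3a, 30.6% in Scn2a1, 33.0% in Scn8a, 40.5% in Scn3b and 45.7% in Scn2b. The median over 13023 genes with a mean of at least 1 CPM was 25.4%, and the value of Scn2b exceeded that of 96.5% of them. Between run codes the median of Scn1a differed least, with 63.7 CPM in the lowest run code and 72.9 CPM in the highest. The median of Scn4b differed most, with 13.5 CPM in the lowest run code, which held 1 vehicle, and 28.9 CPM in the highest, which held none.

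**Figure D2:**
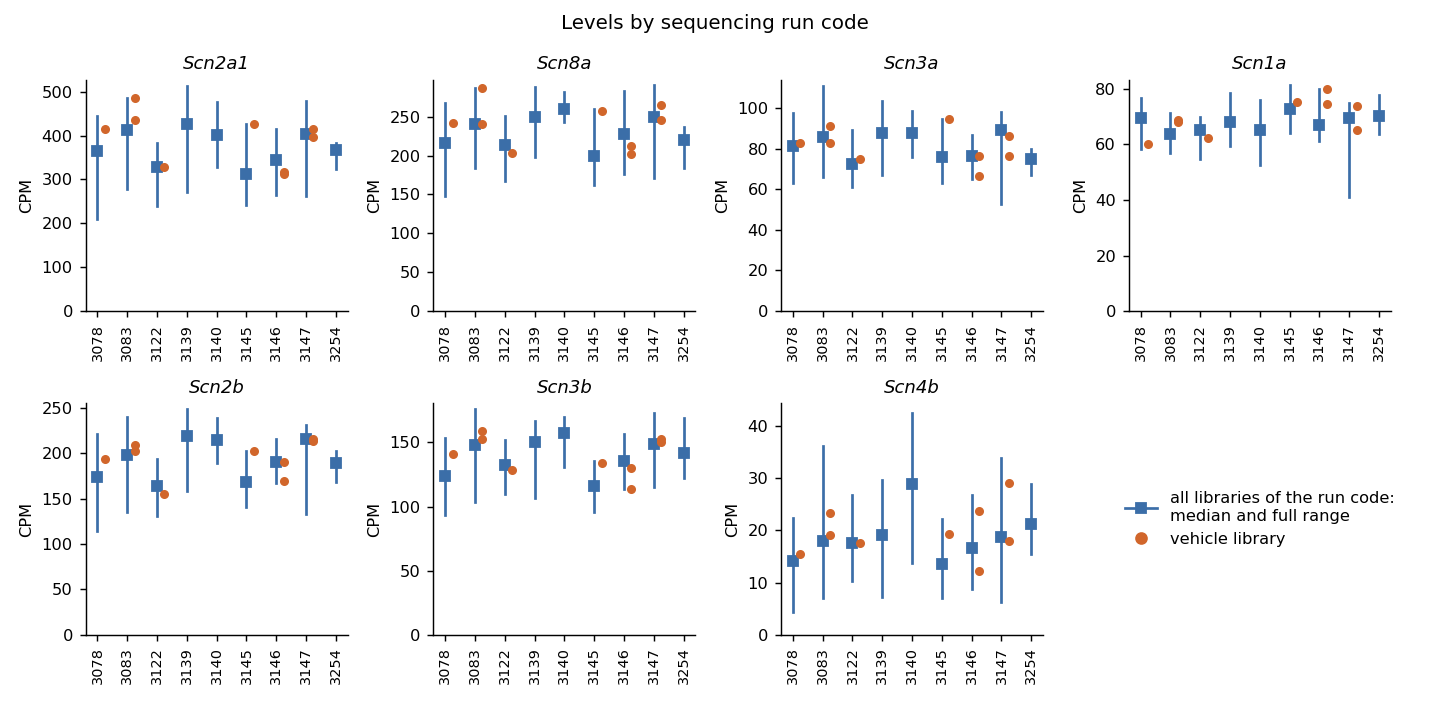
CPM of each gene (y axis, from 0) by sequencing run code (x axis), with the median and full range of all libraries of a run code in blue and single vehicle libraries in orange. Medians differ between run codes by up to 2.1 times (Scn4b), and 3 run codes have no vehicle point.

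For this reason levels were also taken relative to the median of the library's own run code, on the log2 CPM scale. On that scale Scn1a had an SD of 0.11 over all libraries and Scn2a1 had an SD of 0.21, against a median SD of 0.14 over all 13023 genes. Scn4b had an SD of 0.50, above that of 97.7% of genes.

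Each drug library was compared with the 9 vehicle libraries by edgeR's quasi-likelihood test over all genes, with Benjamini-Hochberg adjustment and a threshold of 0.05. A drug has 1 library, so the standard errors (SE) come from the spread of the vehicles, and all comparisons share these vehicles. Over the 218 drugs the members passed the threshold 5 times, each time as a fall, in 2 drugs. Over all genes and drugs 0.12% of tests passed, and 0.0525% passed as falls. Both drugs had many other genes past the threshold. With Nilotinib 12.2% of all genes tested passed, 6.02% as falls, and with Fenofibrate 10.6% passed, 4.78% as falls. Against the remaining 8 vehicles, no vehicle library had a member or any other gene past the threshold in edgeR, with 62 to 832 genes at an unadjusted p under 0.05. Other settings gave the members falls as well and no rise: 5 with RLE size factors (0.0499% of all tests passed as falls), 5 with no filter on low counts (0.0237%), 26 in DESeq2 (0.168%) and 9 in limma over all libraries with run code as a term (0.236%). Of the 26 falls in DESeq2 11 were of Scn4b, and Nortriptyline·HCl and Oxaprozin each had 5 members among them. No member passed in edgeR with either drug. The share of all genes called in DESeq2 with each of them is not given here, so these counts are not read as particular to the members. In edgeR the median drug lay below the vehicles for every member, with median log2 fold changes from -0.25 (Scn4b) to -0.014 (Scn3a). In limma with run code, where each drug is set against all other libraries, these medians were 0.011 to 0.031. The part of this offset from the vehicles in the falls was not tested.

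With Nilotinib, an inhibitor of the BCR-ABL tyrosine kinase used against leukaemia, Scn2a1, Scn2b and Scn4b fell. Scn4b had 4.4 CPM with Nilotinib, against 12.2 to 29.1 CPM in the vehicle libraries, a log2 fold change of -2.18 ± 0.42 (SE; edgeR adjusted p = 0.0108). Scn2a1 had 210 CPM with Nilotinib, against 313 to 486 CPM in the vehicle libraries, a log2 fold change of -0.92 ± 0.23 (SE; edgeR adjusted p = 0.0308). Scn2b had 115 CPM with Nilotinib, against 155 to 215 CPM in the vehicle libraries, a log2 fold change of -0.79 ± 0.16 (SE; edgeR adjusted p = 0.0152). Each of these 3 values was the lowest of the 32 libraries of its run code and below every vehicle library. The call of Scn2a1 was lost without vehicle 5, 7 or 9, where its adjusted p was 0.0544, 0.0515 and 0.0522 by the same test.

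In limma with run code, where all other libraries take the place of the vehicles, these 3 falls with Nilotinib were smaller. Scn4b was at -1.49 ± 0.50, Scn2a1 at -0.75 ± 0.21 and Scn2b at -0.59 ± 0.16 (log2, SE). Their limma adjusted p-values were 0.021, 0.00394 and 0.00299. The other 4 members did not pass in edgeR or limma with Nilotinib. The limma adjusted p was 0.124 for Scn8a and 0.295 for Scn3b, and 3 and 4 libraries of the same run code were lower. Scn8a had 167 CPM with Nilotinib, against 202 to 288 CPM in the vehicle libraries (log2 fold change -0.54 ± 0.18, SE; edgeR adjusted p = 0.0694), and passed in DESeq2 (adjusted p = 0.0238). Scn3b had 106 CPM with Nilotinib, against 114 to 159 CPM in the vehicle libraries (edgeR adjusted p = 0.0946), and passed when vehicle 3 was left out (edgeR adjusted p = 0.0385). Scn3a had 64.2 CPM with Nilotinib, against 66.6 to 94.9 CPM in the vehicle libraries (edgeR adjusted p = 0.144). Scn1a had 65.1 CPM with Nilotinib, inside the vehicle range of 60.2 to 79.8 CPM (log2 fold change -0.12 ± 0.14, SE). Its share of the alpha RPKM was 15.0% with Nilotinib, against 8.53% to 13.7% in vehicle libraries, and the share of Scn2a1, 45.4%, was the lowest of all libraries.

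Other neuronal genes were also lower with Nilotinib. The 34 genes listed as partners of the channels were further family members, anchoring and adhesion proteins, modulators and neighbouring ion channels. The list also held Nav1, which is not a sodium channel gene. Of these 34 genes, 33 were tested and none rose, with a median log2 fold change of -0.40 against -0.014 over all genes. In all 10 fell, Nav1 among them. They included Cntn1, an adhesion protein that binds the channel complex (-0.95 ± 0.23), Nrcam, which holds channels at axonal domains (-0.68 ± 0.17), and Fgf13, which binds the alpha subunit tail (-0.57 ± 0.14, each a log2 fold change ± SE). In edgeR, of 8 neuron markers 3 fell (Tubb3, Snap25 and Syt1), of 6 excitatory neuron markers 1 fell (Camk2a), of 8 inhibitory neuron markers 1 fell (Vip), and of 5 oligodendrocyte precursor markers 3 fell (Pdgfra, Cspg4 and Olig2). Of 25 activity-regulated genes, Btg2, Gadd45b and Sik1 rose in edgeR. That list summed to 2359 CPM with Nilotinib, against 717 to 3312 CPM in vehicle libraries. The neuron markers summed to 3943 CPM with Nilotinib, the lowest of all libraries, against 4913 to 6843 CPM in vehicle libraries. The excitatory markers summed to 858 CPM with Nilotinib, against 1228 to 2496 CPM in vehicle libraries. The inhibitory markers summed to 1649 CPM, inside the vehicle range of 1481 to 2201 CPM, and the astrocyte markers to 6971 CPM, inside the vehicle range of 6345 to 7982 CPM. Fewer cells of a type and less RNA per cell cannot be told apart in these whole-culture libraries, and the part of these markers in the falls of the members was not tested.

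With Fenofibrate, a lipid-lowering activator of the nuclear receptor PPAR alpha, a different pair of members fell. Scn1a had 40.9 CPM with Fenofibrate, against 60.2 to 79.8 CPM in the vehicle libraries, a log2 fold change of -0.77 ± 0.15 (SE; edgeR adjusted p = 0.00898). Scn3a had 52.8 CPM with Fenofibrate, against 66.6 to 94.9 CPM in the vehicle libraries, a log2 fold change of -0.63 ± 0.16 (SE; edgeR adjusted p = 0.0342). Each was the lowest value of its gene in any library. The next lowest library of the same run code had 62.4 CPM of Scn1a and 65.4 CPM of Scn3a. The call of Scn3a was lost without vehicle 5 or vehicle 9, with an adjusted p of 0.0561 and 0.0548 by the same test.

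Scn2b had 133 CPM with Fenofibrate, against 155 to 215 CPM in the vehicle libraries, a log2 fold change of -0.55 ± 0.16 (SE) just outside the threshold (edgeR adjusted p = 0.0543). It passed in edgeR without vehicle 1 or vehicle 3 (adjusted p = 0.0169 and 0.0436), in DESeq2 (adjusted p = 0.00903) and in limma with run code (-0.67 ± 0.16, SE; adjusted p = 0.000321), where 13.7% of all genes passed as falls. Scn4b had 25.3 CPM with Fenofibrate and 12.2 to 29.1 CPM in the vehicle libraries, above 8 of the 9 vehicles. Scn8a had 210 CPM with Fenofibrate and 202 to 288 CPM in the vehicle libraries, and Scn3b had 136 CPM with Fenofibrate and 114 to 159 CPM in the vehicle libraries. These 3 members lay within the vehicle range, and Scn2a1, with 285 CPM, lay below the vehicle range of 313 to 486 CPM without passing (edgeR adjusted p = 0.222).

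Inhibitory neuron markers were low in the same library. They summed to 985 CPM with Fenofibrate, the lowest of all libraries, against 1481 to 2201 CPM in vehicle libraries. Of 8 such markers 2 fell in edgeR. Gad2, which makes GABA, fell by 1.39 on the log2 scale (SE 0.25), and Slc32a1, which loads GABA into vesicles, fell by 0.72 (SE 0.17). In limma with run code both fell too. Gad1 (-0.66 ± 0.12), Lhx6 (-0.85 ± 0.15) and Sst (-0.57 ± 0.17, each log2 ± SE) fell there as well. Their limma adjusted p-values were 5.05e-06, 1.73e-06 and 0.00697. In that fit 13.7% of all genes passed as falls. The excitatory markers summed to 1893 CPM with Fenofibrate, inside the vehicle range of 1228 to 2496 CPM, but 5 of the 6 had a log2 fold change below 0 (median -0.48), none past the threshold in edgeR. In limma with run code 2 of them, Neurod6 (-1.54 ± 0.44, SE; adjusted p = 0.00374) and Tbr1 (-0.78 ± 0.26, SE; adjusted p = 0.0141), fell. The astrocyte markers summed to 9231 CPM, the highest of all libraries and above the vehicle range of 6345 to 7982 CPM. Of these 8 markers 2 (Aldh1l1 and Aldoc) rose in edgeR. In limma with run code both rose too. Slc1a3 (0.55 ± 0.18) and Slc1a2 (0.52 ± 0.18, each log2 ± SE) rose there as well (limma adjusted p = 0.0129 and 0.017). Of 8 neuron markers 2 fell in edgeR (Tubb3 and Syt1), and Map2 fell as well in limma with run code (-0.30 ± 0.11, SE; adjusted p = 0.0424). Among 25 activity-regulated genes Btg2, Gadd45b and Per1 rose in edgeR. In limma with run code these genes rose too. So did Junb, Nr4a1, Dusp1 and Sik1 of the same list, by 1.56 (Sik1) to 3.49 (Nr4a1) on the log2 scale. That list summed to 2268 CPM with Fenofibrate, against 717 to 3312 CPM in vehicle libraries. Of 33 partner genes tested in edgeR 5 fell (Fgf12, Fgf13, Kcna1, Kcna2 and Nalcn) and 1 rose (Cntn2), with a median log2 fold change of -0.18 against -0.0046 over all genes. The part of these markers in the falls of Scn1a and Scn3a was not tested.

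Fenofibrate is 1 of 5 fibrates among the drugs, a group set side by side here after their values were seen. Relative to the median of its own run code, Scn1a stood at -0.76 with Fenofibrate, -0.31 with Ciprofibrate, -0.11 with Gemfibrozil, -0.072 with Bezafibrate and -0.071 with Clofibrate, all on the log2 CPM scale. Scn1a had 52.7 CPM with Ciprofibrate, the second lowest value relative to run code, with an adjusted p of 0.25 against the vehicles in edgeR and 0.0664 in the limma fit with run code. Ciprofibrate, Bezafibrate and Clofibrate came from 1 run code that held no vehicle, so in their comparison with vehicle the drug cannot be told apart from the run code. The doses of the 5 fibrates are not given in the sources used here.

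With Ursodiol, a bile acid, no gene passed in edgeR, and 18.9% of all genes passed in limma with run code, 9.69% as falls, where all other libraries take the place of the vehicles. There 3 members fell. Scn4b had 7.02 CPM with Ursodiol, against 12.2 to 29.1 CPM in the vehicle libraries (limma log2 change -1.40 ± 0.50, SE; adjusted p = 0.0409). Scn2b had 135 CPM with Ursodiol, against 155 to 215 CPM in the vehicle libraries (limma log2 change -0.54 ± 0.16, SE; adjusted p = 0.0315). Scn3b had 103 CPM with Ursodiol, against 114 to 159 CPM in the vehicle libraries (limma log2 change -0.51 ± 0.16, SE; adjusted p = 0.0318). All 3 were the lowest values of the 32 libraries of its run code, as were those of Scn2a1 and Scn8a. The astrocyte markers summed to 9082 CPM with Ursodiol, above the vehicle range of 6345 to 7982 CPM, and the neuron markers to 4374 CPM, below the vehicle range of 4913 to 6843 CPM.

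The drugs at the ends of the range, taken relative to run code, were partly shared between members, and these are descriptions of single libraries that passed no test unless stated above. The anticonvulsant Pregabalin, which binds a calcium channel subunit, was among the 3 highest libraries for 4 members. It had 444 CPM of Scn2a1, 97.4 CPM of Scn3a, 221 CPM of Scn2b and 153 CPM of Scn3b, in a run code whose medians were 364, 81.4, 173 and 124 CPM. Temazepam, a benzodiazepine, was among the 3 highest for Scn3a, Scn2b and Scn4b, and its 111 CPM of Scn3a was the highest of all libraries. At the low end, Duloxetine·HCl, Fluoxetine·HCl, Naloxone·HCl and Nortriptyline·HCl were each among the 3 lowest libraries for 2 members. Scn4b was lowest after Nilotinib with Naloxone·HCl (6.33 CPM) and Propranolol·HCl (6.83 CPM), in a run code with a median of 18.7 CPM, and highest with Vigabatrin (36.2 CPM, run code median 18.0 CPM).

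Drugs that act on the channels themselves gave no member past the threshold. The class held Riluzole·HCl, Mexiletine·HCl, Lacosamide, Rufinamide, Oxcarbazepine and Quinidine·HCl·H2O, all of which block sodium channels as at least part of their action. Treated as 6 replicates of a class against the 9 vehicles, they had none of the 7 members and no other gene (0%) past the threshold, over 14639 genes tested in edgeR, 22358 in DESeq2 and 15474 in limma with run code. At an unadjusted p under 0.05 edgeR gave 174 genes, DESeq2 gave 251 and limma 215, with no member in any of the 3. The libraries came from 5 run codes.

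The levels show the scatter within this class. Scn2a1 had 290, 322, 344, 400, 411 and 449 CPM with Quinidine·HCl·H2O, Riluzole·HCl, Lacosamide, Mexiletine·HCl, Rufinamide and Oxcarbazepine, against 313 to 486 CPM in the vehicle libraries. The class mean was 369 ± 60.6 CPM (SD, n = 6) and the vehicle mean 392 ± 60.4 CPM (SD, n = 9). The log2 fold change of the class was -0.088, with a 95% interval of -0.33 to 0.15. Scn8a was at -0.098 (95% interval -0.27 to 0.073) and Scn1a at -0.087 (-0.21 to 0.040). Scn3a was at 0.019 (-0.16 to 0.20), Scn2b at -0.022 (-0.21 to 0.17) and Scn3b at -0.041 (-0.25 to 0.17). Scn4b, with 8.51 CPM with Quinidine·HCl·H2O and 33.9 CPM with Oxcarbazepine as its ends, was at -0.072 (-0.63 to 0.48). For 6 of the 7 members the interval of the class mean stays within 0.33 on the log2 scale in either direction, while for Scn4b it reaches beyond 0.6. These intervals cover the mean over 6 different drugs, fitted without run code, and do not bound the change with any single drug.

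**Figure D3:**
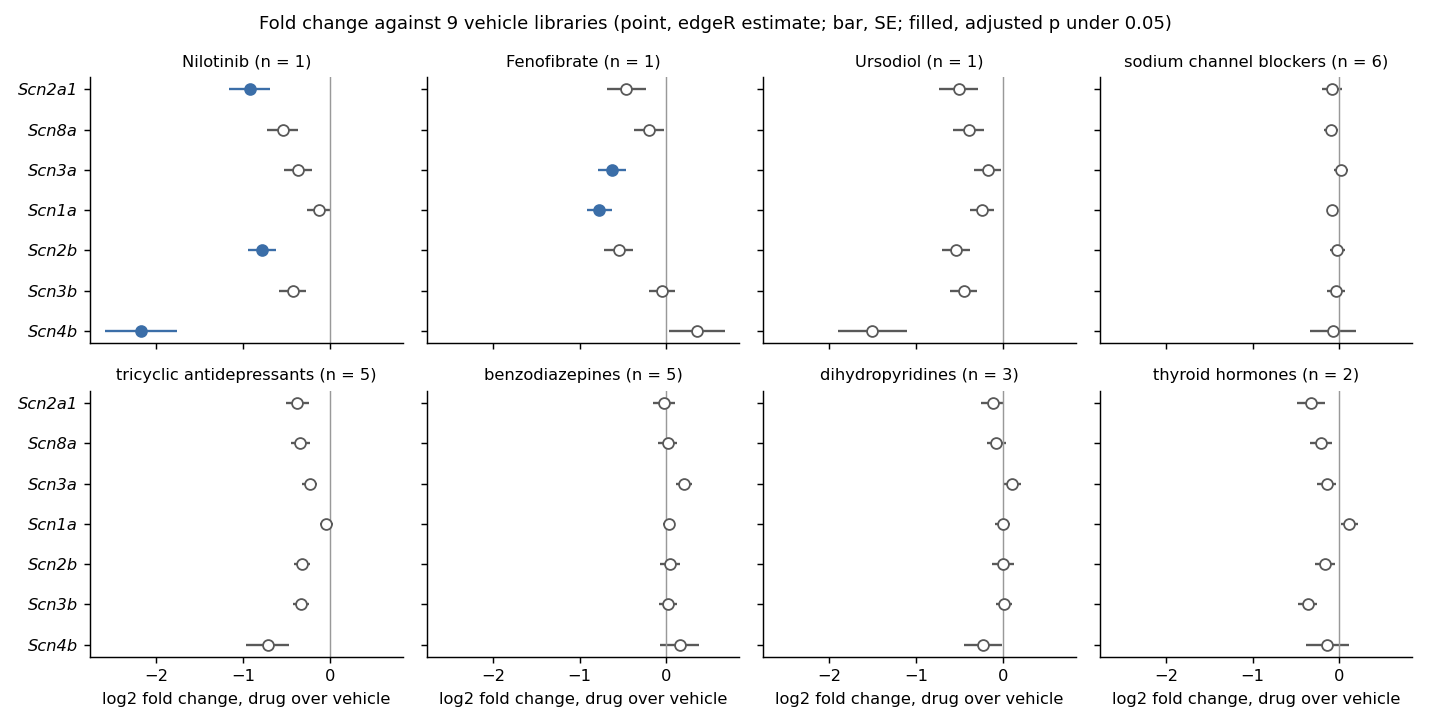
log2 fold change (x axis, drug over vehicle) of each gene (y axis) for 3 single drugs and 5 drug classes against the 9 vehicle libraries, with points for edgeR estimates, bars for SE and filled points for an adjusted p under 0.05. The 5 filled points are Scn2a1, Scn2b and Scn4b with Nilotinib and Scn1a and Scn3a with Fenofibrate, and no class has one.

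The tricyclic antidepressants, which also block sodium channels, were Imipramine·HCl, Nortriptyline·HCl, Protriptyline·HCl, Trimipramine Maleate and Doxepin·HCl. With this class the estimates of the members lay between -0.72 and -0.041 on the log2 scale. No gene passed in edgeR (0%), although 26.4% of genes had an unadjusted p under 0.05. Scn3b had 93.6 to 128 CPM in the class (mean 111 ± 14.9, SD, n = 5), against 114 to 159 CPM in the vehicle libraries (mean 140 ± 14.9, SD, n = 9). Its log2 fold change was -0.34, with a 95% interval of -0.53 to -0.14 (edgeR adjusted p = 0.147). Scn2b was at -0.32 (-0.52 to -0.13), Scn8a at -0.34 (-0.57 to -0.11), Scn2a1 at -0.37 (-0.66 to -0.084), Scn3a at -0.23 (-0.42 to -0.052) and Scn4b at -0.72 (-1.24 to -0.20), with edgeR adjusted p-values of 0.147 to 0.152.

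Scn1a was the exception in the same class, at -0.041 with a 95% interval of -0.20 to 0.12 (edgeR adjusted p = 0.719). DESeq2 called Scn2b and Scn3b (adjusted p = 0.036 and 0.0324), where 3.51% of all genes passed. In limma with run code, where all other libraries take the place of the vehicles, estimates were smaller, at -0.23 for Scn3b, -0.23 for Scn2a1 and -0.37 for Scn4b. No member passed there (limma adjusted p = 0.136 to 0.975), with 0.0194% of all genes past the threshold. That fit changes both the run-code term and the comparison group, and the part of each was not tested. Within the class Scn2a1 had 232, 241, 316, 354 and 367 CPM with Nortriptyline·HCl, Doxepin·HCl, Trimipramine Maleate, Imipramine·HCl and Protriptyline·HCl. Relative to the median of their own run codes these were -0.65, -0.38, -0.38, 0.10 and 0.011 on the log2 CPM scale, so 3 of the 5 libraries were low. Nortriptyline·HCl and Protriptyline·HCl, the lowest and the highest in CPM, came from the same run code, whose vehicle had 415 CPM.

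Benzodiazepines, which enhance GABA-A receptor currents, had none of the 7 members past the threshold in edgeR, where 3.86% of all genes passed, or in limma with run code, where 12.1% passed. Scn3a had 77.4, 83.8, 91.8, 103 and 111 CPM with Oxazepam, Clonazepam, Triazolam, Lorazepam and Temazepam, against 66.6 to 94.9 CPM in the vehicle libraries, with 2 drugs above the vehicle range. The mean was 93.5 ± 13.8 CPM with these drugs (SD, n = 5) and 81.4 ± 8.77 CPM with vehicle (SD, n = 9), a log2 fold change of 0.20 with a 95% interval of 0.0037 to 0.40 (edgeR adjusted p = 0.237; limma with run code 0.17 ± 0.066, SE, adjusted p = 0.0693). Of 32 tested partner genes, Cntn2, an axonal adhesion protein of the region beside the node of Ranvier, rose by 0.69 ± 0.12 (log2, SE; edgeR adjusted p = 0.00968) and no other passed in edgeR. In limma with run code Nfasc also rose (0.14 ± 0.041, log2, SE; adjusted p = 0.00981). Of 25 activity-regulated genes 15 fell in edgeR in the same class, and the list had a median of -1.80 (log2) against 0.012 over all genes.

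The dihydropyridines Nifedipine, Nimodipine and Felodipine, which block L-type calcium channels, had no member and no gene past the threshold in edgeR (0%), with 5.75% of genes at an unadjusted p under 0.05. DESeq2 called 26 genes (0.143%), no member among them, and limma with run code none. Estimates of the members ran from -0.23 for Scn4b to 0.11 for Scn3a. With the thyroid hormones Levothyroxine·Na and Liothyronine·Na, both from 1 run code, 1.3% of all genes and no member passed in edgeR. Scn3b had 110 and 108 CPM with these hormones, against 114 to 159 CPM in the vehicle libraries, at a log2 fold change of -0.37 (95% interval -0.60 to -0.13; edgeR adjusted p = 0.125). In that run code the median of Scn3b over all 32 libraries was 116 CPM and its vehicle had 134 CPM, and in limma with run code the estimate was -0.087 (adjusted p = 0.986), where 2.39% of all genes passed. DESeq2 called this fall (adjusted p = 0.0384), where 6.59% of all genes passed, as did edgeR without vehicle 3 (adjusted p = 0.0483). Scn1a had 78.1 and 72.8 CPM with these hormones, within the 60.2 to 79.8 CPM of the vehicle libraries.

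Across all libraries the members other than Scn1a varied together. Correlations were taken on log2 CPM minus the run-code median, with libraries permuted within run codes and p-values adjusted over the 21 pairs, and 18 pairs passed the threshold, all with a positive r. The closest pair was Scn2a1 and Scn8a (Pearson r = 0.902, Spearman rho = 0.869; permutation p = 1e-05 for each, the smallest that 100000 permutations can give, adjusted p = 1.4e-05). Within single run codes its r ran from 0.454 to 0.958 and was positive in all 9. Scn2a1 and Scn2b followed (r = 0.893, rho = 0.867), with r of 0.692 to 0.957 within run codes. Scn2b and Scn3b had an r of 0.852 (rho = 0.856; 0.616 to 0.953 within run codes). Leaving out the 2 libraries farthest from the median changed these 3 to 0.904, 0.883 and 0.883.

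Scn4b correlated with Scn3b (r = 0.725, rho = 0.683), Scn2a1 (r = 0.708, rho = 0.635) and Scn2b (r = 0.677, rho = 0.649), all with a permutation p of 1e-05. Within run codes these 3 relations were positive in 8 of 9 and negative in the smallest, which held 8 libraries. Scn3a correlated with Scn2a1 (r = 0.774, rho = 0.751) and Scn2b (r = 0.772, rho = 0.708), each positive in all 9 run codes.

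The 6 pairs with Scn1a had the lowest values of r, and 3 of them passed. The highest r of Scn1a with a member was 0.33 with Scn3a (rho = 0.192, permutation p = 3e-05, adjusted p = 3.94e-05), which was 0.194 without Fenofibrate and Ciprofibrate. With Scn2b its r was 0.299 (rho = 0.193, permutation p = 0.00012, adjusted p = 0.000148), and 0.19 without the same libraries. Its r with Scn2a1 was 0.195 (rho = 0.161, permutation p = 0.00445, adjusted p = 0.00519), with Scn8a 0.10 (permutation p = 0.132), with Scn3b 0.013 and with Scn4b 0.00051, and within run codes the r with Scn2a1 ran from -0.353 to 0.732. Without centring on run code its r was -0.175 with Scn3b and -0.143 with Scn4b. Whether these values of r differ from those of the other members was not tested.

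**Figure D4:**
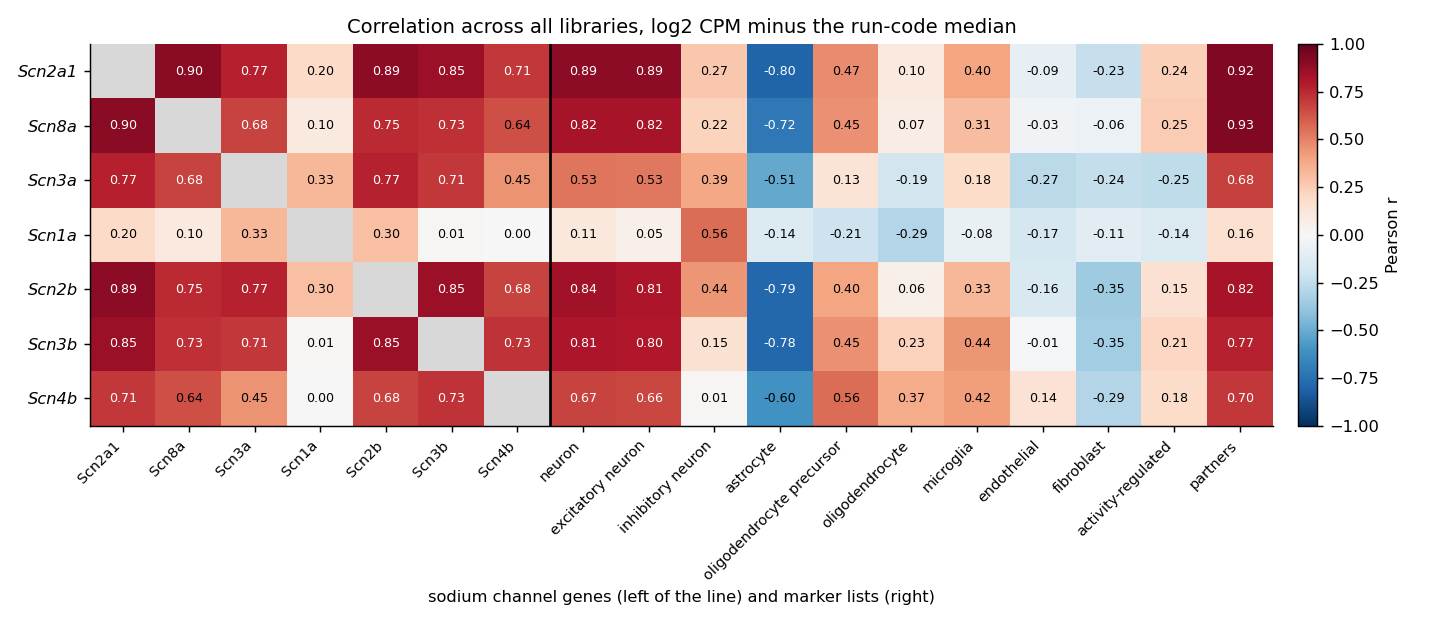
Pearson r across all libraries (colour and printed value) between the sodium channel genes (rows) and the same genes or the mean of marker lists (columns), on log2 CPM minus the run-code median. All rows are positive with neuron markers, at 0.53 to 0.89 but only 0.11 for Scn1a. All are negative with astrocyte markers, where Scn1a is at -0.14. Scn1a is highest with inhibitory neuron markers, at 0.56.

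Correlations with marker lists differed in size between the members, and these differences were not tested. Correlations with 11 lists gave 77 relations, of which 64 passed the threshold after adjustment over the 77, 45 of them positive. Scn2a1 followed the excitatory neuron list (r = 0.891, rho = 0.84; 0.54 to 0.963 within run codes) and ran against the astrocyte list (r = -0.801, rho = -0.817; -0.939 to -0.415 within run codes). Scn2b had an r of 0.808 with the excitatory list and -0.786 with the astrocyte list, Scn3b had 0.801 and -0.783, Scn8a had 0.821 and -0.715, and Scn3a had the lower values of 0.529 and -0.509. All genes of a library share its depth, its run code and the mix of cells in its culture, and the part of that mix in these relations was not tested. The partner list had an r of 0.926 with Scn8a and 0.925 with Scn2a1.

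Scn1a was correlated most with the inhibitory neuron list (r = 0.557, rho = 0.414; permutation p = 1e-05, adjusted p = 1.88e-05), positively in 8 of 9 run codes, and r was 0.446 without Fenofibrate and Ciprofibrate. Its r with the excitatory list was 0.049 (permutation p = 0.465) and with the neuron list 0.11 (permutation p = 0.119). The inhibitory list also passed with Scn2b (r = 0.441), Scn3a (0.388), Scn2a1 (0.272), Scn8a (0.224) and Scn3b (0.149), and not with Scn4b (r = 0.0085, permutation p = 0.899), whose r with the excitatory list was 0.665. By rank the relation with Scn3b did not pass (rho = 0.107, permutation adjusted p = 0.129), and its r was positive in 5 of 9 run codes.

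The genes whose levels ran closest to each member were ranked by Pearson r over all libraries among 13023 genes, and these are descriptions without a test. For Scn1a they were Nxph1 (0.722), Gad2 (0.717), Erbb4 (0.701), Kcnc2 (0.692) and Spock3 (0.639). In mouse cortex Nxph1, Gad2 and Erbb4 are expressed mainly in inhibitory neurons, and Kcnc2 encodes a fast potassium channel of fast-spiking cells. Without Fenofibrate and Ciprofibrate these values were 0.529 to 0.624. Gad2 itself had 195 CPM with Fenofibrate, against 441 to 669 CPM in the vehicle libraries, and 500 CPM with Nilotinib, inside the vehicle range.

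For Scn2a1 the closest genes were Dnajc6, Pgm2l1, Erc2, Frrs1l and Cyfip2, with r of 0.948 to 0.961. Dnajc6 encodes auxilin, which uncoats synaptic vesicles, Erc2 a protein of the presynaptic active zone and Frrs1l a factor in AMPA receptor assembly. For Scn8a they were Cacna1b (0.945), Adcy1, Kif21b, Cacna1e and Erc2, of which Cacna1b and Cacna1e encode presynaptic N-type and R-type calcium channels. Scn2b ran with Ndrg4, Mapk8ip2, Dnajc6, Gnal and Smim13 (0.914 to 0.945), and Scn3b with Cd200, Slc6a15, Cdkl2, Arhgef28 and Rab9b (0.913 to 0.93). Scn3a ran with Ssbp2, Tbc1d30, Rufy3, Mtus2 and Adam22 (0.862 to 0.888).

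For Scn4b the closest genes were Phyhip, Pde1b, Adora2a, Drd2 and Dclk3, with r of 0.864 to 0.868. In mouse brain Scn4b, Pde1b, Adora2a and Drd2 are most abundant in the spiny projection neurons of the striatum. In these cultures, labelled as cerebral cortex, Adora2a had a median of 16.1 CPM in drug libraries and 18.6 CPM in vehicle libraries, and Drd2 had 7.90 CPM in drug libraries and 9.32 CPM in vehicle libraries. With Nilotinib Adora2a had 1.38 CPM, against 10.7 to 27.2 CPM in vehicle libraries, and Drd2 had 3.1 CPM, against 5.3 to 12.1 CPM. The r of Scn4b and Adora2a was 0.867 over all libraries, 0.64 to 0.949 within run codes and 0.864 without Nilotinib and Naloxone·HCl.

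**Figure D5:**
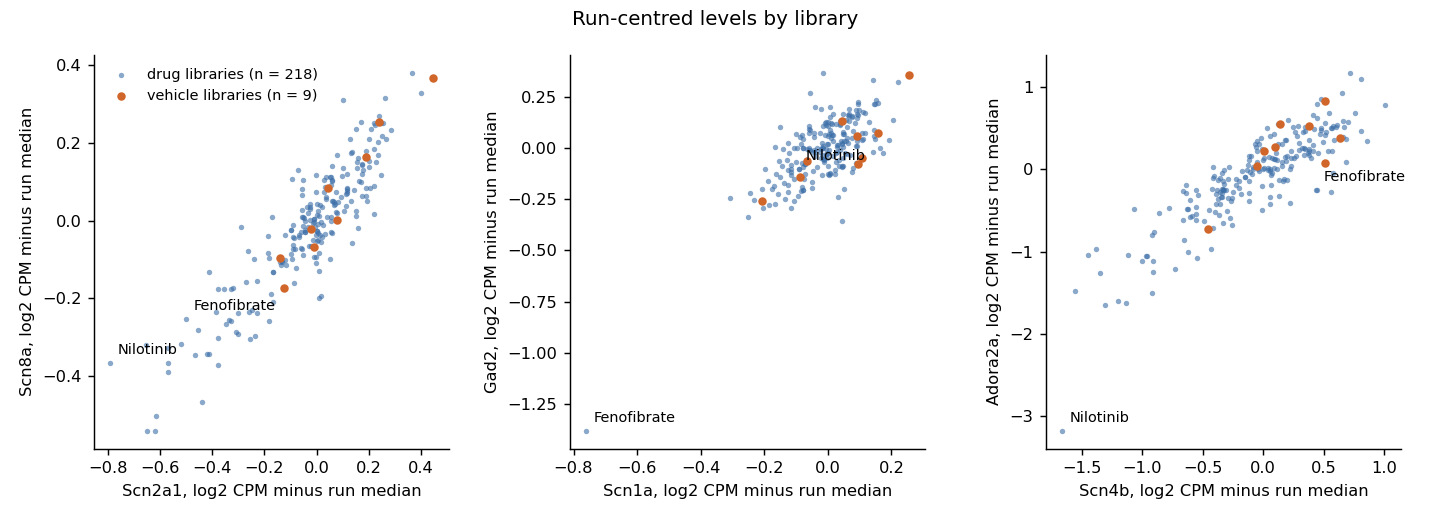
log2 CPM minus the run-code median for Scn8a against Scn2a1 (left), Gad2 against Scn1a (middle) and Adora2a against Scn4b (right), with drug libraries in blue and vehicle libraries in orange. Nilotinib is lowest for Scn2a1 and Scn4b and lies in the middle for Scn1a, where Fenofibrate is the isolated low point.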

How the data were processed

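RNA was measured in 227 libraries, 218 of single drugs and 9 of vehicle, grouped by the agent in the labels. The count table the authors deposited holds whole reads, with 1 row per Ensembl gene. Their deposited RPKM table could be recomputed from these counts, the gene lengths and the column sums (2862517 values checked, largest relative difference 4.99e-06), and it was used for levels between genes. The submitters' processing notes name mm10 and, with no role given, edgeR 3.10.5, limma, Subread 1.4.6 and STAR 2.4.0. The library kit keeps strand, but whether counting used it is not given in the sources used here. Of 31689 identifiers 31328 were found in GENCODE vM21.

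Counts were tested in R 4.3.3 with edgeR 4.0.16 (TMM factors 0.939 to 1.06, default filter on low counts, quasi-likelihood F test, Benjamini-Hochberg adjusted p under 0.05), each drug or class against the 9 vehicles. DESeq2 1.42.0, RLE factors, no filter, limma 3.58.1 on log2 CPM with a run-code term, fitted to all libraries together (each drug or class against all other libraries), leaving out single libraries and other class memberships were alternatives. In DESeq2 an adjusted p given as missing stayed missing. Errors are SE of log2 fold changes or SD of CPM, and intervals cover 95%. Scripts were tested on simulated data. Run-centred values are log2 CPM (prior count 1) minus the run-code median, correlations used 100000 permutations within run codes (Python 3.11.15, scipy 1.17.1), and marker lists were averaged over genes with a mean of at least 1 CPM.

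All members, every drug with a member past the threshold and partner genes past the threshold in a class were named. The 3 highest and 3 lowest drugs and the 5 closest genes per member were also named. Ursodiol, the fibrates, single markers and single activity-regulated genes were added after their values were seen. Members, lists and classes were chosen with earlier results of these data known. Promoter windows came from RefSeq.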

Additional observations from a re-analysis of the deposited data

Results flagged for a closer look

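Within the 5 tricyclic antidepressants the level of Scn3a was far apart from the others in 1 library. Protriptyline·HCl had 82.85 CPM, while the other 4 drugs of the class had 62.94 to 68.46 CPM and the vehicle libraries had 66.6 to 94.9 CPM. Its gap to the nearest library was 0.7226 of the range of the class. Relative to the median of its own run code it did not stand apart in this way, at 0.026 on the log2 CPM scale with Protriptyline·HCl, -0.082 with Imipramine·HCl and -0.37 to -0.23 with the other 3 drugs. This was the only such value in 28 groups of 4 to 10 samples examined, and chance gives about 1 in 20.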

How the results depend on the processing

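The 5 member calls over the 218 drugs numbered 5 with RLE factors or no filter, 26 in DESeq2 and 9 in limma with run code, where all of these were falls; the cause was not tested. Left-out vehicles gave 1 to 3 calls with Fenofibrate, 1 without vehicle 5 or 9. DESeq2 gave 2 calls with tricyclic antidepressants and 1 with thyroid hormones, where left-out libraries gave 0 to 1, with 1 without vehicle 3. Leaving out a thyroid hormone leaves 1 sample, assumed to vary like the vehicles. Over all genes edgeR, DESeq2 and limma called 1764, 7519 and 7952 falls over the 218 drugs, 1891, 3218 and 3209 genes with Nilotinib, 1646, 2477 and 4215 with Fenofibrate, 0, 30 and 2929 with Ursodiol, 569, 1262 and 1875 with benzodiazepines, 0, 433 and 3 with tricyclic antidepressants and 196, 940 and 370 with thyroid hormones. Without vehicle 5 or 9 edgeR called 1046 or 1163 genes with Nilotinib.

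Among values with no call, sodium channel blocker estimates turned positive without Quinidine·HCl·H2O and Riluzole·HCl for Scn2a1 (0.031), Scn2b (0.076), Scn3b (0.072) and Scn4b (0.16). In limma with run code the class was at -0.013 for Scn3a, 0.0086 for Scn2b and 0.0053 for Scn4b, and tricyclic antidepressants at 0.0039 for Scn1a. With single libraries left out the blocker estimates ran from -0.032 to 0.075 for Scn3a, -0.073 to 0.023 for Scn2b, -0.10 to 0.037 for Scn3b and -0.33 to 0.080 for Scn4b. Tricyclic antidepressants ran from -0.068 to 0.016 for Scn1a and benzodiazepines from -0.018 to 0.32 for Scn4b.

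Without the 3 run codes that lack a vehicle, run code accounted for 26.4% of the variance of Scn8a, 40.7% of Scn2b and 18.7% of Scn4b. Not centred on run code, Scn1a had an r of -0.047 with Scn8a, -0.175 with Scn3b and -0.143 with Scn4b. Without Nilotinib and Fenofibrate it had -0.016 with Scn3b and -0.021 with excitatory markers. No paired analysis was possible because each drug has 1 library, with no replicate number that could be matched to those of the vehicles. With 1 library per drug the median SE of a log2 fold change was 0.14 for Scn1a and 0.35 for Scn4b, which limits the changes that could be called. At the depth of these libraries Scn4b had a median of 705 reads in vehicle libraries.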
